A study of Homo sapiens with 4 samples.

Results

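The 10 genes described here code for proteins that act directly on viruses or on the nucleotides that viruses need: MX1, MX2, RSAD2, CMPK2, BST2, IFITM1, IFITM2, IFITM3, ISG20 and SAMHD1. They were taken by symbol from the 27629 genes listed in at least one deposited table, and all 10 are listed in each of the 4 tables. The group was chosen by function when it was already known how interferon-stimulated genes differed in si-hnRNPK as compared with control. That contrast is therefore given as a description, and nothing is supported with it. UM-UC-3 cells, an established line from a human bladder tumour, were transfected with siRNA at 75 nM and harvested at 48 h for RNA-seq. The 4 conditions had 1 library each: control siRNA, si-hnRNPK, si-PTBP1 and a library that carries the label si-lncRNA-LBCS. Each of the 3 knockdown libraries came from cells given 2 siRNAs against 1 target, so the effects of single siRNAs cannot be told apart, and the control cells were also transfected. With 1 culture of 1 line per condition there is no replicate error, and the differences have no replicate check.

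Interferons are secreted proteins that bind receptors on the cell surface, and JAK kinases at these receptors phosphorylate STAT proteins. Together with IRF9 these form ISGF3, a transcription factor that binds the interferon-stimulated response element (ISRE) in the promoters of many antiviral genes. The members act at different steps of viral growth: IFITM proteins block the fusion of viral and cell membranes, MX proteins trap incoming viral nucleocapsids, RSAD2, CMPK2, SAMHD1 and ISG20 act on nucleotides or RNA, and BST2 holds new particles at the cell surface.

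The reads on listed genes were between 54301152 and 70232674 per library, and 3 reads corresponded to between 0.0427 and 0.0552 CPM, the read count of a gene scaled to the same library total. HNRNPK in the si-hnRNPK library was at 24.0% of the control library, and PTBP1 in the si-PTBP1 library at 32.0%. AL022068.1 (ENSG00000228412), to which the siRNAs of the si-lncRNA-LBCS-labelled library match, was there at 0.818 times the control level (95% interval 0.619 to 1.08). Against control, that label is therefore not borne out by the level of its target. The level of AL022068.1 was nevertheless lowest in this library, at 1.47 CPM. It was 1.79 CPM in control, 3.43 CPM in si-hnRNPK and 3.82 CPM in si-PTBP1. Of 14 urothelial and epithelial marker genes, 4 reached 1 CPM in a library (KRT7, KRT8, KRT18 and PPARG), while uroplakin genes, KRT5 and GATA3 stayed below 1 CPM. All 6 mesenchymal markers reached 1 CPM.

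Promoter sequences are shown because the ISRE is the element through which genes of this kind are known to respond to interferon. RefSeq promoters on GRCh38.p14, from 250 bases before to 50 bases after each start, were given for 8 of the 10 members, with 13 promoters in all. MX2 and IFITM2 had no entry. The ISRE core GAAANNGAA was searched on both strands, where the other strand reads TTCNNTTTC. It was found in 9 promoters of 7 members, and 8.11% of all 35116 promoters of this length held it. SAMHD1 was the member with a promoter entry and no match. In the lines below the matches are in capitals and each sequence is read 5′ to 3′ on the strand of its gene.
CMPK2, chr2:6865791-6865829, minus strand: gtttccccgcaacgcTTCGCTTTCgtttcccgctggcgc
RSAD2, chr2:6865791-6865829, plus strand: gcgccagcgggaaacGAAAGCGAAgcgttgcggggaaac
IFITM1, chr11:313985-314057, plus strand: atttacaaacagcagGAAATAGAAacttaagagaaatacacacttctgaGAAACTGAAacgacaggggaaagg
IFITM3, chr11:320872-320927, minus strand: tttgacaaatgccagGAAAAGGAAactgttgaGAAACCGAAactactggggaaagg
BST2, chr19:17405731-17405775, minus strand: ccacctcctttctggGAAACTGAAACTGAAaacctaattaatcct
MX1, chr21:41420554-41420587, plus strand: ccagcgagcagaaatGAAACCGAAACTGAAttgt
ISG20, chr15:88638932-88638970, plus strand: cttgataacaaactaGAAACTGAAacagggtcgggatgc

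CMPK2 and RSAD2 are divergent neighbours, and the first 2 lines are the same 39 bases read from either strand, so 1 match lies in both promoters. IFITM1, IFITM3, BST2 and MX1 each held 2 matches, which overlap in BST2 and MX1. A further start of RSAD2 and a further start of MX1 also held 1 match each. The other starts of CMPK2 and another start of MX1 held none. The GAS motif TTCNNNGAA, an element known from interferon gamma responses, was found in 3 of the 13 promoters (IFITM1, BST2 and MX1), against 7.66% of all promoters. These matches are letters in a sequence, and binding to them was not measured in these libraries.

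All values are CPM as deposited, which for the members stand for whole reads in every library, and a change is the difference in log2(CPM + 1) against the control library. A member was called up or down when either library had it at 1 CPM or more and its change was at least 1, which is 2-fold on that scale. Because 1 is added, this scale understates the change of low genes, so ratios of CPM are also given. Intervals of ratios are 95% exact Clopper-Pearson intervals for the reads of the 2 libraries and cover counting error only. The interval of a change moves the ratio to these bounds while the summed CPM of the 2 libraries is held fixed. For genes that are low in 1 library it can therefore be narrower than the full counting error. The 3 comparisons share the control library and are not independent of each other. In bulk RNA a gene made by more cells and a gene made at a higher level per cell cannot be told apart.

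In the si-hnRNPK library 6 of the 10 members were up-regulated (CMPK2, RSAD2, MX2, BST2, IFITM1 and IFITM3) and 0 were down. Over the 13672 genes tested in this comparison, 3.55% were up and 3.93% were down. The median change of the members was 1.62, and that over all genes tested was -0.11. All 10 members reached 1 CPM in the si-hnRNPK library, but 6 of them (MX1, MX2, RSAD2, CMPK2, BST2 and IFITM1) did so in that library alone, which means that they could enter the comparison only by being high there. The interval of the change lay above 0 for each of the 10. The control library held 4 members at 1 CPM or more, the si-lncRNA-LBCS-labelled library 3 and the si-PTBP1 library 4. The summed level of the 10 was 110.2 CPM in the control library, 277.7 in si-hnRNPK, 96.0 in the si-lncRNA-LBCS-labelled library and 97.2 in si-PTBP1.

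**Figure D1:**
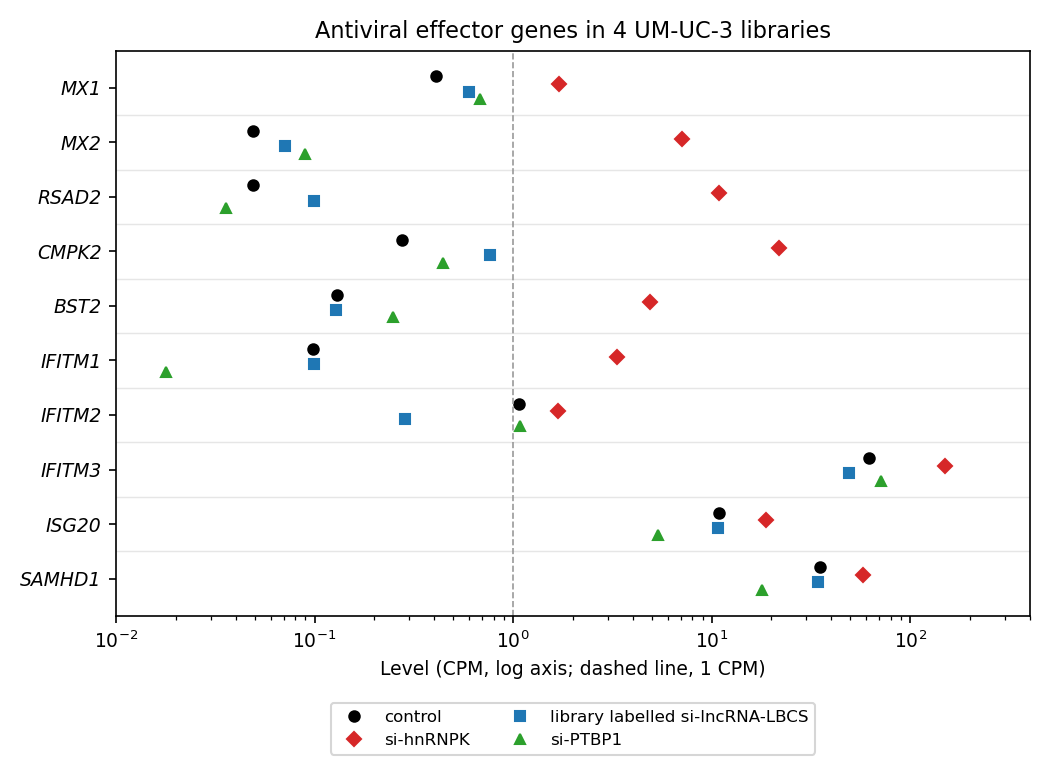
Level of each of the 10 genes in each library, in CPM on a log axis, with 1 point per library and a dashed line at 1 CPM. The si-hnRNPK point is the farthest right in every row, from 1.68 CPM for IFITM2 to 149.2 CPM for IFITM3, and MX1, MX2, RSAD2, CMPK2, BST2 and IFITM1 lie left of the line in the 3 other libraries.

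RSAD2 (viperin) is a radical SAM enzyme that turns CTP into a chain-terminating nucleotide. It lies on chromosome 2 from 6865806 to 6898239 on the plus strand (ENSG00000134321, GENCODE release 29 on GRCh38, as for all gene positions here). Its level was 0.0489 CPM in the control library (3 reads), 10.9 CPM in si-hnRNPK (594 reads), 0.0997 CPM in the si-lncRNA-LBCS-labelled library (7 reads) and 0.0357 CPM in si-PTBP1 (2 reads). It was thus close to undetected in all libraries but si-hnRNPK. The ratio of si-hnRNPK to control was 223.8 (95% interval 76.2 to 1088), the largest of the members, and the change was 3.51 (interval 3.37 to 3.57).

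CMPK2 (ENSG00000134326, chromosome 2, 6840570 to 6866635, minus strand) is a mitochondrial nucleotide kinase that phosphorylates CMP and UMP. Its level was 0.277 CPM in the control library (17 reads), 21.9 CPM in si-hnRNPK (1191 reads), 0.769 CPM in the si-lncRNA-LBCS-labelled library (54 reads) and 0.446 CPM in si-PTBP1 (25 reads). Its change in si-hnRNPK, 4.17 (interval 3.98 to 4.31), was the largest of the members on the log2 scale and stood at rank 3 from the top of all 13672 genes. The ratio was 79.2 (interval 49.2 to 136.4). CMPK2 was also the one member whose interval lay above 0 in the si-lncRNA-LBCS-labelled library, where the ratio was 2.78 (interval 1.58 to 5.11) and the change was 0.47. Both libraries were below 1 CPM in that comparison, so no call was made. The annotated spans of CMPK2 and RSAD2 overlap by 830 bases on opposite strands, and whether the reads were counted by strand is not given in the sources used here. CMPK2 had 2.01 reads for each RSAD2 read in si-hnRNPK, 5.67 in the control library, 7.71 in the si-lncRNA-LBCS-labelled library and 12.5 in si-PTBP1, the last 3 resting on 7 RSAD2 reads or fewer each.

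The MX genes, dynamin-like GTPases, lie side by side on the plus strand of chromosome 21, MX2 (ENSG00000183486) from 41361943 to 41409390 and MX1 (ENSG00000157601) from 41420304 to 41459214. MX1 is cytoplasmic and acts against influenza and many other RNA viruses, and MX2 sits at nuclear pores and acts against lentiviruses and herpesviruses. MX2 was at 0.0489 CPM in the control library (3 reads), 7.13 CPM in si-hnRNPK (387 reads), 0.0712 CPM in the si-lncRNA-LBCS-labelled library (5 reads) and 0.0892 CPM in si-PTBP1 (5 reads). MX1 was at 0.407 CPM (25 reads), 1.69 CPM (92 reads), 0.598 CPM (42 reads) and 0.678 CPM (38 reads) in the same order. MX2 was therefore the lower of the pair in reads in 3 libraries and the higher in si-hnRNPK, where it had 4.21 reads for each MX1 read, against 0.12 in the control library. Against control, MX2 changed by 2.95 (interval 2.81 to 3.01) and was up-regulated. MX1 was at 4.16 times the control level (interval 2.65 to 6.76), but its change of 0.94 missed the threshold, which it passed at 1.82 with a pseudocount of 0.1 CPM and at 1.01 with median-of-ratios scaling. The MX1 span, introns included, overlaps that of an antisense gene, AP001610.1, by 4653 bases. Overlap of their exons was not measured, and reads from any exon bases shared there cannot be told apart without strand.

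BST2 (tetherin, ENSG00000130303, chromosome 19, 17402939 to 17405648, minus strand) is a membrane-anchored protein that ties budding virions to the cell. Its level was 0.130 CPM in the control library (8 reads), 4.92 CPM in si-hnRNPK (267 reads), 0.128 CPM in the si-lncRNA-LBCS-labelled library (9 reads) and 0.250 CPM in si-PTBP1 (14 reads). The si-hnRNPK library stood apart, and in the 2 other knockdown libraries the interval of the ratio to control held 1. The ratio of si-hnRNPK to control was 37.7 (interval 18.9 to 88.3), with a change of 2.39.

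The 3 IFITM genes lie within a short stretch of chromosome 11. IFITM1 acts mostly at the plasma membrane, and IFITM2 and IFITM3 act mostly in endosomes. IFITM3 (ENSG00000142089, 319669 to 327537, minus strand) was the most abundant member, with 62.0 CPM in the control library (3807 reads), 149.2 in si-hnRNPK (8102 reads), 49.0 in the si-lncRNA-LBCS-labelled library (3439 reads) and 71.2 in si-PTBP1 (3993 reads). It was up-regulated in si-hnRNPK at 2.41 times the control level (interval 2.31 to 2.50), with a change of 1.25. Smaller differences outside counting error were seen in the si-lncRNA-LBCS-labelled library, with a ratio of 0.789 (interval 0.754 to 0.827), and in si-PTBP1, with a ratio of 1.15 (interval 1.10 to 1.20). With median-of-ratios scaling the change in si-PTBP1 moved from 0.20 to 0.07. The annotated span of IFITM3, introns included, overlaps noncoding genes on both strands, the longest stretch being 5963 bases with an antisense gene. Overlap of their exons with those of IFITM3 was not measured on the opposite strand.

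IFITM1 (ENSG00000185885, 313506 to 315272, plus strand) was at 0.0978 CPM in the control library (6 reads), 3.33 CPM in si-hnRNPK (181 reads), 0.0997 CPM in the si-lncRNA-LBCS-labelled library (7 reads) and 0.0178 CPM in si-PTBP1 (1 read). It was up-regulated in si-hnRNPK at 34.1 times the control level (interval 15.4 to 94.1). IFITM2 (ENSG00000185201, 307631 to 315272, plus strand) was at 1.08 CPM (66 reads), 1.68 CPM (91 reads), 0.285 CPM (20 reads) and 1.09 CPM (61 reads) in the same order. The lowest IFITM2 level was in the si-lncRNA-LBCS-labelled library, at 0.265 times the control level (interval 0.152 to 0.442). That change, -0.69, did not pass the threshold, but it was -1.61 with a pseudocount of 0.1 CPM. IFITM1 lies inside the annotated IFITM2 locus on the same strand over 1767 bases, and 25.5% of the 100-base windows of IFITM1 also occur in IFITM2, so the split of reads between them is uncertain. Such windows shared with other genes made up 18.2% of IFITM2 and 3.13% of IFITM3, and 0% of the 7 members outside the IFITM family. Windows were compared in the sense direction only, so overlap with genes on the opposite strand does not enter these shares.

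ISG20 and SAMHD1 had 302 reads or more in every library and a like pattern over the 4. ISG20 (ENSG00000172183, chromosome 15, 88636153 to 88656483, plus strand) is an exonuclease that degrades single-stranded RNA. It was at 10.9 CPM in the control library (669 reads), 18.7 CPM in si-hnRNPK (1018 reads), 10.8 CPM in the si-lncRNA-LBCS-labelled library (756 reads) and 5.39 CPM in si-PTBP1 (302 reads). SAMHD1 (ENSG00000101347, chromosome 20, 36889773 to 36951901, minus strand) hydrolyses deoxynucleoside triphosphates and so limits the substrates of viral reverse transcription. It was at 35.2 CPM (2158 reads), 58.2 CPM (3158 reads), 34.2 CPM (2403 reads) and 18.0 CPM (1008 reads) in the same order. For both genes si-hnRNPK was the highest library, si-PTBP1 the lowest, and the si-lncRNA-LBCS-labelled library was near the control library. The annotated span of SAMHD1, introns included, overlaps that of a protein-coding gene by 4463 bases on the opposite strand. Overlap of their exons was not measured, and reads from any exon bases shared there cannot be told apart without strand.

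The ratio of si-hnRNPK to control was 1.72 for ISG20 (interval 1.56 to 1.90) and 1.65 for SAMHD1 (interval 1.57 to 1.75), with changes of 0.73 and 0.71 that did not pass the threshold. The ratio of si-PTBP1 to control was 0.494 for ISG20 (interval 0.430 to 0.567) and 0.511 for SAMHD1 (interval 0.474 to 0.551), with changes of -0.90 and -0.93. These changes also missed the threshold, by less than the width of their intervals, and with median-of-ratios scaling they were -1.003 and -1.05 and both passed it. They were at rank 131 and 114 from the bottom of the 13855 genes tested in this comparison. Of all 13694 genes with a symbol at 1 CPM or more in a library, ISG20 was the nearest to SAMHD1 and SAMHD1 the nearest to ISG20. The measure was the distance between their 4 centred values of log2(CPM + 1), which was 0.0233 for this pair. The next gene, ANO3, was at 0.205 from SAMHD1 and 0.202 from ISG20.

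**Figure D2:**
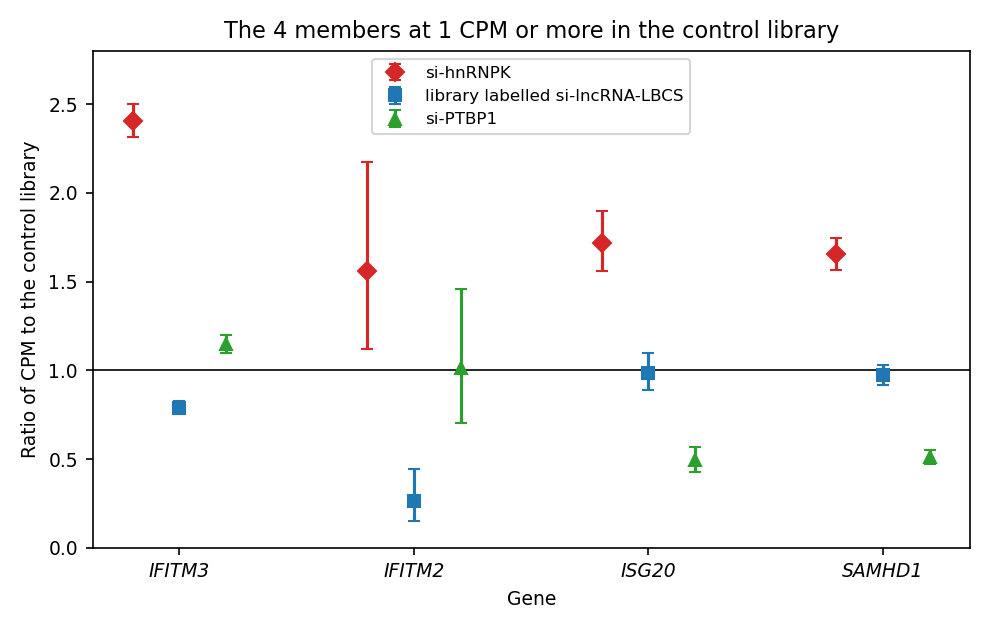
Ratio of CPM to the control library for the 4 genes at 1 CPM or more in that library, with 95% counting intervals, for si-hnRNPK, the si-lncRNA-LBCS-labelled library and si-PTBP1. ISG20 and SAMHD1 show the same order, above 1 in si-hnRNPK, near 1 in the si-lncRNA-LBCS-labelled library and close to 0.5 in si-PTBP1, whereas IFITM2 is lowest in the si-lncRNA-LBCS-labelled library.

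In the si-lncRNA-LBCS-labelled library, 0 members were up and 0 were down of the 4 that could be tested, and 0.378% of the 13492 genes tested were up and 1.01% down. The 4 were IFITM2, IFITM3, ISG20 and SAMHD1, with a median change of -0.19 as compared with -0.01 over all genes tested. Over all 10 members, 5 were higher and 5 lower than in the control library, and the interval lay above 0 for CMPK2, below 0 for IFITM2 and IFITM3, and held 0 for 7. In the si-PTBP1 library again 0 of the same 4 members were up and 0 were down, against 2.92% up and 0.613% down of the 13855 genes tested. Their median change was -0.44, and that over all genes tested was 0.12. The interval lay above 0 for IFITM3, below 0 for ISG20 and SAMHD1, and held 0 for 7. MX1, MX2, RSAD2, BST2 and IFITM1 had 42 reads or fewer in the control, si-lncRNA-LBCS-labelled and si-PTBP1 libraries. At these read counts their intervals against control held 0 in both knockdown libraries, which were not compared directly with each other.

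**Figure D3:**
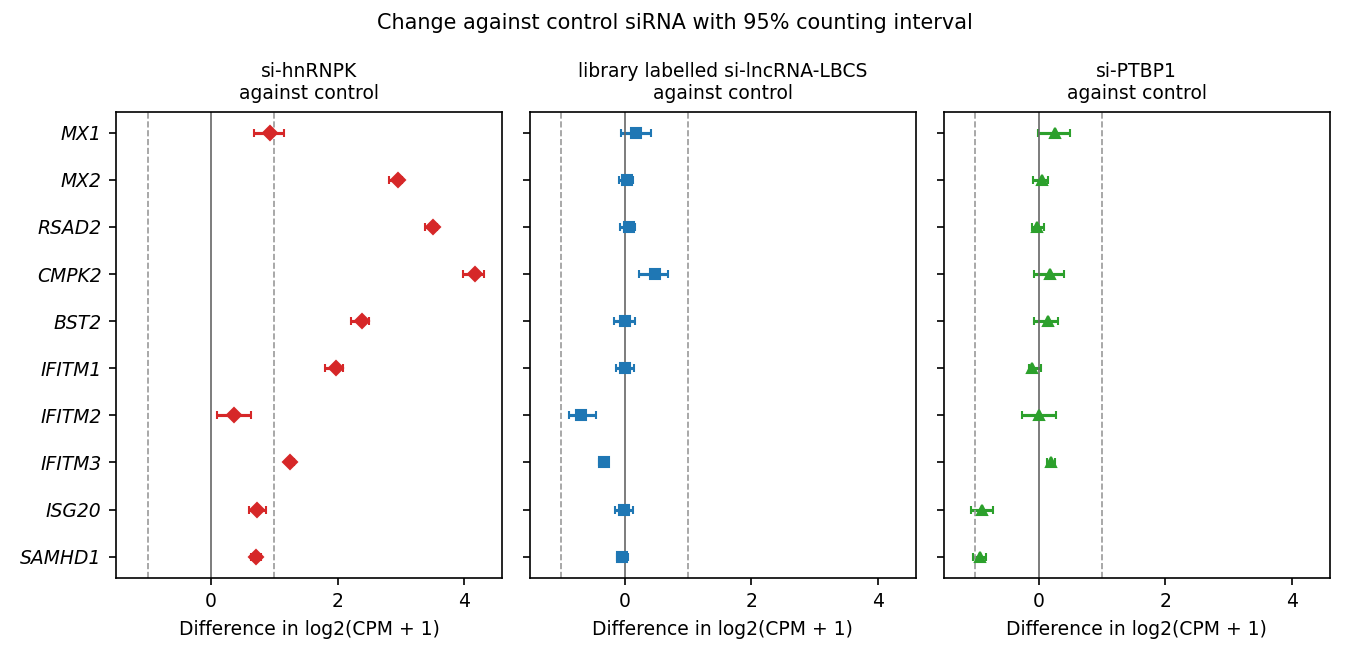
Difference in log2(CPM + 1) of each gene against the control library in the 3 comparisons, with intervals derived from the 95% bounds of the ratio. Dashed lines mark the threshold of 1 in either direction. In si-hnRNPK CMPK2, RSAD2, MX2, BST2, IFITM1 and IFITM3 lie right of the threshold, and in the other panels no point lies outside the dashed lines, with ISG20 and SAMHD1 in si-PTBP1 nearest to them.

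For the order of levels between genes, CPM were divided by the length of all annotated exons of a gene in kilobases. This length joins the exons of all transcripts, from 1080 bases for IFITM1 to 13047 for MX2, and can exceed that of any single transcript. The order thus also depends on the annotation. In the control library the order from the top was IFITM3 (46.0 CPM per kb), SAMHD1 (3.12), ISG20 (1.48), IFITM2 (0.697), BST2 (0.116), IFITM1 (0.0905), CMPK2 (0.0644), MX1 (0.0473), RSAD2 (0.0101) and MX2 (0.00375). The neighbours BST2 and IFITM1, IFITM1 and CMPK2, CMPK2 and MX1, and RSAD2 and MX2 did not differ beyond counting error. In si-hnRNPK IFITM3 (110.7 CPM per kb) and SAMHD1 (5.16) kept the top places, followed by CMPK2 (5.10), BST2 (4.39), IFITM1 (3.09), ISG20 (2.55), RSAD2 (2.26), IFITM2 (1.09), MX2 (0.546) and MX1 (0.197). There SAMHD1 and CMPK2 were the one pair of neighbours whose ratio held 1 (1.01, interval 0.947 to 1.08). CMPK2 thus moved from rank 7 to rank 3, and ISG20, IFITM2 and MX1 lost places without a lower level.

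The genes whose pattern over the 4 libraries was nearest to a member are given by the same distance. For RSAD2 these were IFI44L (0.198), IRF7 and XAF1, for CMPK2 OAS1 (0.263), XAF1 and ISG15, and for BST2 RTP4 (0.104) and HLA-F. For MX2 they were IFI27 (0.246), PARP9 and HLA-F. Most of these are themselves known interferon-stimulated genes. The genes nearest to IFITM1 (LINC02154, NNMT and PLK2), IFITM3 (MYLK, HSPG2 and CARD6), IFITM2 (NR5A2, TATDN2P2 and PLAG1) and MX1 (BBOF1, SMTNL1 and CFAP20DC) are not classical members of that group. With 4 libraries and 1 of them far from the rest, many genes share such a pattern.

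Upstream of the members, ligand transcripts were scarce. Of 14 interferon genes 5 were listed and 0 reached 1 CPM. IFNB1, which codes for interferon beta, had 1 read in the control library, 29 reads in si-hnRNPK and 1 read in si-PTBP1, and was not listed in the si-lncRNA-LBCS-labelled library. Of the receptor and JAK kinase genes 8 were tested in si-hnRNPK, with 0 up and 0 down and a median change of 0.25. The highest change was that of JAK1, from 298.3 to 441.5 CPM (change 0.56), and the lowest that of IL10RB (-0.37).

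Of 8 genes for ISGF3 and interferon regulatory factors, 5 were up and 0 down, with a median of 1.36. IRF7, which drives interferon genes, rose from 5.30 to 82.1 CPM (change 3.72), STAT2 from 36.7 to 134.0 CPM (1.84) and IRF9 from 2.26 to 6.72 CPM (1.24). IRF5 had the lowest change, -0.58. Of 9 nucleic acid sensors and adaptors tested 4 were up and 0 down, led by DDX58 (RIG-I, a sensor of viral RNA), which rose from 67.1 to 677.4 CPM (3.32). TMEM173 (STING, an adaptor for DNA sensing) had the lowest change, -0.30. Of 6 negative regulators 1 was up and 0 down, and this was USP18, a protease that removes ISG15 and blocks the receptor, from 9.78 to 68.6 CPM. PIAS1, an inhibitor of STAT signalling, had the lowest change of that list, -0.78.

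Of 31 other interferon-stimulated effectors 26 were up and 0 down, with a median change of 2.29, the highest being IFIT1 at 4.50. Of 6 family relatives of the members tested, 0 were up and 0 down, with a median of -0.02. CMPK1, the cytosolic counterpart of CMPK2, went from 175.7 CPM in control to 200.2 CPM in si-hnRNPK (change 0.19), and ISG20L2, a relative of ISG20, had the highest change of that list, 0.39, and REXO4 the lowest, -0.51. The shares over all genes tested in si-hnRNPK were 3.55% up and 3.93% down. These lists, too, were chosen with the changes in si-hnRNPK known, so their counts are a description.

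**Figure D4:**
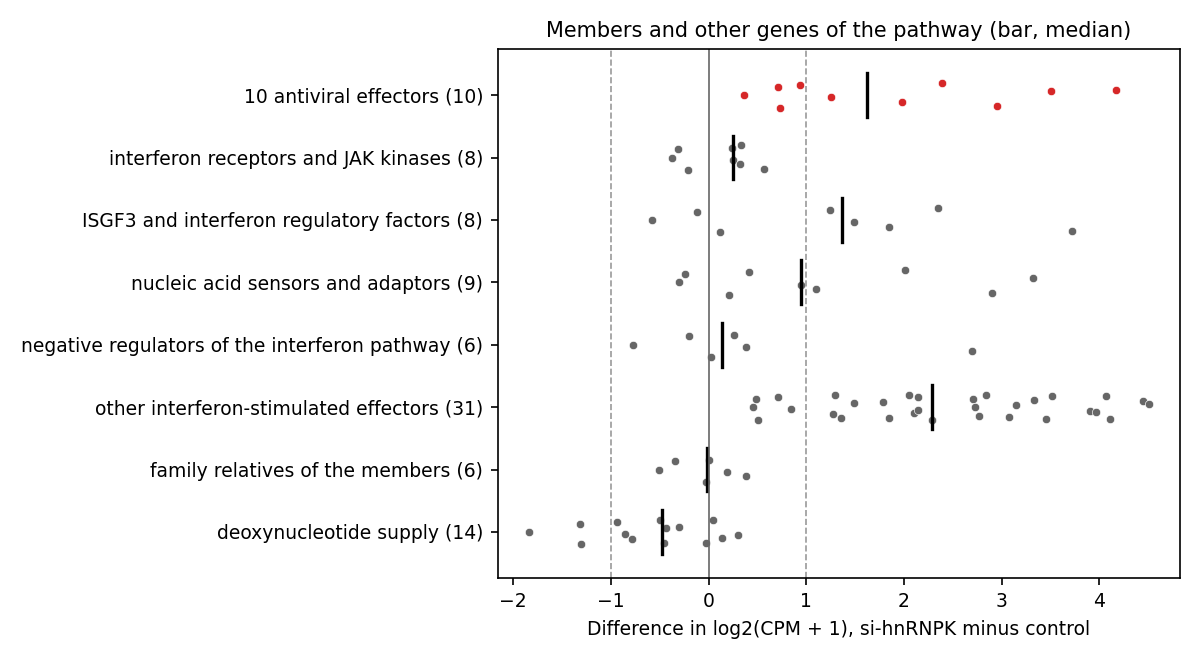
Difference in log2(CPM + 1) between the si-hnRNPK and control libraries for each tested gene of the group and of 7 related lists (number of genes in brackets), with a bar at the median and dashed lines at 1 in either direction. The 10 antiviral effectors all lie above 0, the other interferon-stimulated effectors have a median of 2.29, and the receptor genes and family relatives lie between the dashed lines.

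SAMHD1, CMPK2 and RSAD2 act on nucleotides, so genes that make or degrade deoxynucleotides were also counted. Of 14 such genes 0 were up and 3 down in si-hnRNPK, with a median change of -0.47. Over all genes tested in this comparison, 3.55% were up and 3.93% down. TYMS, the thymidylate synthase, fell from 39.1 to 10.2 CPM (change -1.84), and RRM2, a subunit of ribonucleotide reductase, was also among those that were down. TK2, a mitochondrial thymidine kinase, had the highest change (0.30).

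In the si-lncRNA-LBCS-labelled library 25 of the other interferon-stimulated effectors were tested, with 1 up and 3 down. Over all genes tested there, 0.378% were up and 1.01% down. The count in si-PTBP1 was also 1 up and 3 down of 25, against 2.92% up and 0.613% down over all genes tested. The 3 genes down were the same in both comparisons, which share the control library, and the gene up was not. The 2 counts are therefore not separate observations. Among family relatives 1 was up in si-PTBP1, IFITM10, with a change of 1.005.

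Leukocytes also make many of these proteins, and their markers were therefore measured beside the members. Of 14 leukocyte markers 5 were listed, and ITGAM was the one at 1 CPM or more, with 60 reads in control and 151 reads in si-hnRNPK. The summed level of the list was 1.14 CPM in the control library, 2.91 in si-hnRNPK, 0.413 in the si-lncRNA-LBCS-labelled library and 0.820 in si-PTBP1, and PTPRC, the common leukocyte antigen, was not listed. The part of such cells in the levels of the members was not tested. Of 5 endothelial markers 0 reached 1 CPM.

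The siRNAs themselves can lower other transcripts through their seed, bases 2 to 8 of the guide strand. The longest annotated 3′ UTR of each member was searched for the complement of each seed. Neither si-hnRNPK siRNA had a match in any member. One PTBP1 siRNA had a match in SAMHD1, ISG20 and MX2, and 13.6% of the 3′ UTRs of all 19146 genes searched held it. The siRNA and the matched sites are shown with the match in capitals, since SAMHD1 and ISG20 were the members whose interval lay below 0 in si-PTBP1.
PTBP1 siRNA 2, sense strand: cccucauugacCUGCACAatt
SAMHD1: aactccctctcCTGCACAattcattt
ISG20: ccctggactgcCTGCACAtctagggc
MX2: tgtccagtctcCTGCACAgcacctgc
The annotated 3′ UTR of SAMHD1 has 3159 bases and that of ISG20 952 bases. MX2, with 3 reads in the control library and 5 in si-PTBP1, had too few to compare. Of the other siRNAs, PTBP1 siRNA 1 had a match in CMPK2, one siRNA of the si-lncRNA-LBCS-labelled library in CMPK2, and the control siRNA in RSAD2. The part of any of these matches in the levels was not tested.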

How the data were processed

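Total RNA of UM-UC-3 cells was sequenced as 100-bp paired-end reads, with 4 libraries and 1 per condition as given by the labels. For each library the authors deposited a table of Ensembl identifiers with CPM, gene read counts scaled to a common total. The build was hg19 per the submitters' processing notes, and the aligner, counter, annotation and strand setting are not given in the sources used here. Where a gene had reads, its CPM was a whole multiple of 1 read in 100% of cases (tolerance 0.001 of a read), which gave the reads. Between 197 and 393 listed genes per table had no reads and held a placeholder of less than 1 read, which was counted as 0 reads. No member was among them.

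Changes were differences in log2(CPM + 1) for genes that either library had at 1 CPM or more, called at 2-fold. No p-value is given, for want of replicates. As an alternative, which compares libraries and not conditions, an exact binomial test was run on the reads. Its q after Benjamini-Hochberg adjustment was 0.05 or less for 10894 of 13672 genes (si-hnRNPK), 9512 of 13492 (si-lncRNA-LBCS-labelled library) and 10221 of 13855 (si-PTBP1). Other alternatives were no filter, 5 CPM as the filter, a pseudocount of 0.1 CPM, a 1.5-fold threshold, median-of-ratios scaling and the geometric mean of the 3 other libraries as the reference. Intervals of ratios are 95% exact Clopper-Pearson intervals, and those of changes are derived from their bounds at a fixed summed CPM.

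The members and all gene lists were chosen with earlier results of these data known. Named genes are the members, the siRNA targets, the 3 genes nearest to a member in pattern, and per list the highest and lowest change in si-hnRNPK, with receptor and ISGF3 genes where a role is explained. Genes named outside this rule (RRM2, IFNB1, IFNE, IFNK, ITGAM, PTPRC, CMPK1, IFITM10 and cell type markers) were chosen after their values were seen. Some genes that the rule or a count would name are not reported here. Gene models are from GENCODE release 29 on GRCh38, matched by identifier, promoters from RefSeq on GRCh38.p14, with no coordinates from the deposited tables. Protein sequences were not used here. The scripts were tested on simulated data. Tools were statsmodels 0.14.6, scipy 1.17.1, pandas 2.3.3 and numpy 2.4.6 under Python 3.11.15, with matplotlib 3.10.9 for plots.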

Additional observations from a re-analysis of the deposited data

How the results depend on the processing

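The number of up-regulated members in si-hnRNPK, 6 with the settings reported, was 4 with a filter of 5 CPM and 9 with a 1.5-fold threshold, and lay between these in the other alternatives, and 0 members were down in each. All 10 members had a positive change in si-hnRNPK in the alternatives run on them. Their median change of 1.62 moved to 2.97 with a pseudocount of 0.1 CPM and to 1.71 with median-of-ratios scaling. In the si-lncRNA-LBCS-labelled library the number of members down was 1 (IFITM2) instead of 0 with a pseudocount of 0.1 CPM and with a 1.5-fold threshold. The median change over all 10 members there moved from -0.000158 to -0.25 against the geometric mean of the 3 other libraries, which include si-hnRNPK. In si-PTBP1 the number down was 1 (ISG20) with a pseudocount of 0.1 CPM, and 2 (ISG20 and SAMHD1) with median-of-ratios scaling, with a 1.5-fold threshold and against the geometric mean, and the median over all 10 moved from 0.03 to -0.31 against the geometric mean. The log2 scaling factor of the median-of-ratios method, over 12362 genes and relative to the control library, was 0.13 in si-PTBP1, -0.11 in si-hnRNPK and -0.01 in the si-lncRNA-LBCS-labelled library.

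No paired analysis was possible because there is 1 library per condition, and no library was left out for the same reason. Counting intervals do not hold the spread between cultures. MX2, RSAD2, BST2 and IFITM1 had 14 reads or fewer in each library but si-hnRNPK, so their ratios are known within wide bounds.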
